A study of Glycine max with 22 samples.

Results

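The comparison described here sets mature leaves of soybean (Glycine max) taken after 15 days of shoot regrowth, R30, against leaves of plants at the end of bud removal, D15. It uses 6 of the series' 22 Affymetrix Soybean GeneChip arrays, 3 in each group, chosen by sample label alone. Every axillary and terminal bud of the treated plants had been taken off daily for 15 days from a plant age of 30 days, and D15 leaves were harvested at the end of that period, at an age of 45 days. R30 plants had the same removal followed by 15 days without it, and were 60 days old. Untreated plants of these ages, C30 and C15 with 3 arrays each, are the age reference, and R20 leaves (3 arrays, age 50 days, 5 days of regrowth) lie between D15 and R30 in age. The remaining arrays are of untreated plants, C0 (4 arrays, age 30 days) and C20 (3 arrays, age 50 days). They enter the test through the spread shared by all 22 arrays. All plants grew in chambers with days of 16 h. The labels name no transgene or chemical treatment, and give neither the cultivar nor the number of plants in a sample. R30 and D15 differ in plant age as well as in regrowth, which cannot be told apart within this pair.

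Mature leaves are source organs: they export sugars and amino compounds to growing buds, flowers and fruits. When these sinks are taken away, soybean leaves are known to keep nitrogen as vegetative storage proteins, vacuolar glycoproteins that serve as a reserve, together with lipoxygenases and other proteins, and to stay green for longer. The question of the comparison is which leaf transcripts differed once new shoots had been allowed to grow again.

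The defining leaf markers were present in both groups. All 5 of them, the light-harvesting gene CAB3 and 4 Rubisco activase genes, lay above the signal floor on every R30 and D15 array, with a summed signal of 16493 to 22256 in R30 and 15697 to 22402 in D15. None of 7 seed storage genes was above the floor on all arrays of either group (summed signal 20.8 to 55.2 in R30 and 27.4 to 68.0 in D15), and none of 3 flower genes was. Of 4 nodule genes 2, ENOD40B and NOD33, were above the floor on all 6 arrays, as was SEOS alone among 8 sieve element genes. The histone gene H4, listed for dividing bud tissue, stood at 5291 to 5792 in R30 and 6059 to 8575 in D15. In whole leaves a smaller share of one cell type and less RNA per cell cannot be told apart.

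The floor, the 95th percentile of probe sets of other organisms on the same chip, was 17.9 to 18.4 in R30 and 15.7 to 16.9 in D15. Signals correlated at 0.918 to 0.953 between R30 arrays, at 0.913 to 0.957 between D15 arrays and at 0.889 to 0.930 across the 2 groups. The median SD of a probe set on the log2 scale was 0.31 in R30 and 0.39 in D15, against 0.36 in C20 and 0.55 to 0.62 in the other groups. D15 replicate 3 stood apart within its group, with a median soybean signal of 57.1 against 73.2 and 67.4, and an actin 3' over 5' ratio, which is higher in degraded RNA, of 7.29 against 2.29 and 2.94. In R30 that ratio was 2.83, 3.37 and 4.47. The R20 arrays differed from both groups in the ratio of the hybridisation controls BioC and BioB, at 2.83 to 2.89 against 1.05 to 1.19 in R30 and 1.10 to 1.17 in D15, and R20 replicate 3 had an actin ratio of 136, so R20 values are given without a test.

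No probe set passed the test. Of 32776 soybean probe sets tested with limma on log2(signal + 1), 0 (0%) had an adjusted p under 0.05, with a smallest adjusted p of 0.0747. Without adjustment 1020 probe sets (3.11%) were higher in R30 and 915 (2.79%) lower at p under 0.05. The median difference over all probe sets was 0.088. The spread behind this test is shared by all 22 arrays and is wider than that within R30 and D15. A fit of the same values to the 6 arrays alone called 337 probe sets, 155 higher and 182 lower. A fit without C0 replicate 4, C15 replicate 1 and R20 replicate 3 called 94, of which 77 were among the 337. Both fits hold the same R30 and D15 arrays and differ in the spread they use, so their overlap is not independent support.

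Separation of the groups was counted as well, with groups called separated where their arrays did not overlap. For 4220 probe sets (12.9%) all 3 R30 arrays lay above all 3 D15 arrays, and for 3126 (9.54%) all 3 lay below. After each array had been centred on its median these counts were 2815 and 4247, and after quantile normalization 3561 and 3846, so the balance of the 2 directions rests on the scaling. With 1 array left out, when separation is more easily met, the counts were 5159 to 7409 higher and 3784 to 6870 lower. They were highest without D15 replicate 3, at 7409 (22.6%) and 6870 (21%). In untreated leaves of the same ages, all 3 C30 arrays lay above all C15 arrays for 774 probe sets (2.36%) and below for 1347 (4.11%). The median SD of a probe set was wider there, 0.61 in C30 and 0.62 in C15 against 0.31 in R30 and 0.39 in D15. Separation is harder to meet with a wider spread, so these shares do not measure which interval differed more. C30 against C15 gave 0 calls (0%) with 1712 probe sets at an unadjusted p under 0.05 in limma, against 1935 for R30 against D15. The test of whether the treated leaves differed over this interval by another amount than untreated leaves gave 0 calls (0%) and 733 at an unadjusted p under 0.05. Of 902 measured genes with an informative symbol, 116 (12.9%) were higher and 135 (15%) lower in R30 without overlap.

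Genes are named by 2 rules. The first takes the 10 of smallest p in each direction, none of which passed, and the second the member of smallest p of each gene list. Members named beside these, to show a list's separated or overlapping genes, were chosen after their values were seen. All 20 were separated between the groups, which a choice by small p favours. The error given with a log2 difference is its standard error in limma, that given with a mean signal is the SD of 3 arrays, and adjusted p-values are those of the limma fit to all 22 arrays unless another fit is named.

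**Figure D1:**
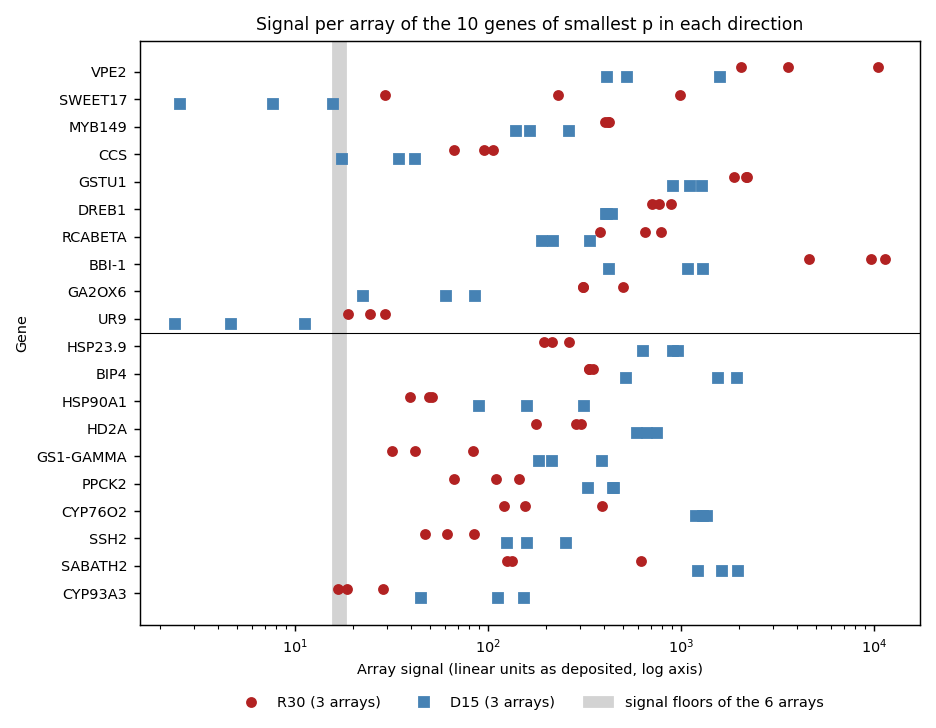
Signal of each array on a log axis for the 10 genes of smallest p in each direction, higher in R30 above the line and lower below it; red circles are the 3 R30 arrays, blue squares the 3 D15 arrays, and the grey band spans the floors of the 6 arrays. In all 20 genes the circles and squares are separated, and the D15 arrays of SWEET17 and UR9 lie at or below the floor.

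Most protein folding genes stood lower in R30, none past the test. They bind and refold other proteins: heat shock proteins act mostly in the cytosol, while BiP and the protein disulfide isomerases act in the endoplasmic reticulum (ER), where secreted and vacuolar proteins fold. All 5 measured heat shock protein genes had lower fitted values, 3 of them (60%, against 9.54% of all probe sets) without overlap, with a median log2 difference of -1.16 against -0.38 between C30 and C15. Of 5 ER chaperone genes 4 (80%, against 9.54% of all probe sets) were lower without overlap, with a median of -0.94 against -0.034 between C30 and C15. In both lists the counts without overlap were the same under quantile normalization and median centring.

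HSP23.9, a small heat shock protein gene, stood at 194, 215 and 263 in R30, against 959, 911 and 635 in D15, a log2 difference of -1.88 ± 0.43 (adjusted p = 0.388). The groups lay far apart, and 3 of 3 probe sets of the gene were separated in the same direction. BIP4, a BiP gene, stood at 335, 332 and 348 in R30, against 1938, 1547 and 516 in D15 (-1.77 ± 0.45, adjusted p = 0.475), and of its 2 probe sets only this one was separated. The R30 arrays were nearly alike, and D15 replicate 3 lay far closer to them than the other D15 arrays did. HSP90A1, of the chaperone family HSP90, stood at 39.3, 49.4 and 51.3 in R30, against 314, 159 and 90.3 in D15 (-1.81 ± 0.47). HSP90-1 of the same family stood at 1578, 1411 and 1635 in R30, against 4142, 3647 and 2702 in D15 (-1.16 ± 0.39).

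The other separated ER genes were BIP2 (-1.58 ± 0.52) and the disulfide isomerase genes PDIL-2 (-0.79 ± 0.26) and PDIM-1 (-0.94 ± 0.34), while PDIQ-1A stood at 53.6, 68.0 and 61.7 in R30, against 66.3, 56.1 and 34.1 in D15 with overlapping groups. In each of the 7 separated folding genes D15 replicate 3, the array with the highest actin ratio of its group, was the nearest of the D15 arrays to R30. The part of RNA quality in these differences was not tested. In untreated leaves BIP4 stood at 519 ± 38.2 in C30 and 435 ± 184 in C15, and the difference between the treated and the untreated interval was -2.10 ± 0.64 for BIP4 and -1.64 ± 0.66 for HSP90A1, neither of which passed over all probe sets (adjusted p = 1 for both). HSP17.5-E (-0.52 ± 0.60) and HSP22.3 (-0.14 ± 1.06) had overlapping groups.

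**Figure D2:**
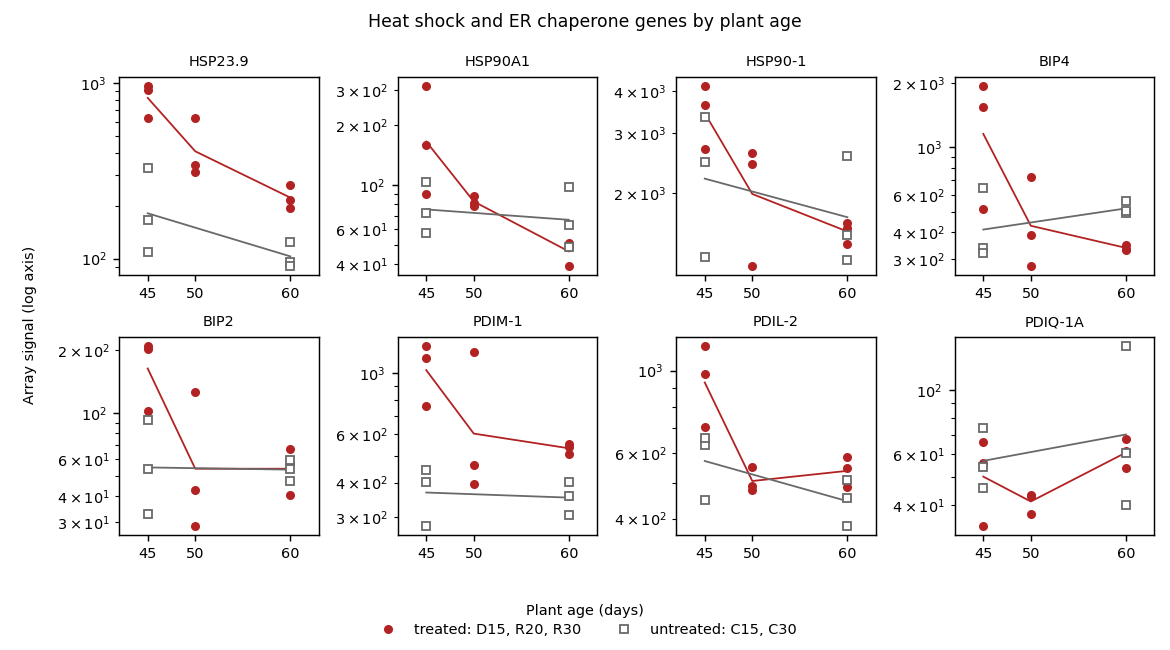
Signal of 8 protein folding genes by plant age on log axes; filled red circles are single arrays of treated plants (D15 at 45, R20 at 50 and R30 at 60 days), open squares those of untreated plants (C15 and C30), and lines join group means of log2(signal + 1). In 7 of the 8 genes every R30 array lies below every D15 array, PDIQ-1A being the exception, while C30 and C15 arrays overlap in all 8.

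Genes of nitrogen assimilation and of the control of phosphoenolpyruvate (PEP) carboxylase were mixed. Of 17 measured, 5 (29.4%, against 9.54% of all probe sets) were lower in R30 without overlap and none was higher, yet 10 had higher fitted values and the list's median was 0.14. Without D15 replicate 3, 7 were lower and 5 higher, against 21% and 22.6% of all probe sets. Between C30 and C15, 5 of the 17 were lower without overlap as well, against 4.11% of all probe sets. GS1-GAMMA, a cytosolic glutamine synthetase gene, stood at 31.7, 41.9 and 83.4 in R30, against 215, 184 and 387 in D15 (-2.34 ± 0.62, adjusted p = 0.485), with R20 still at 306, 271 and 308. PPCK2, which encodes a kinase that activates PEP carboxylase, stood at 110.0, 66.2 and 145 in R30, against 449.8, 446 and 329.7 in D15 (-1.98 ± 0.54, adjusted p = 0.518). Its R20 arrays, at 139, 185 and 166, were already below D15. Both were also lower in C30 than in C15 by fitted value, at -1.46 ± 0.62 and -1.86 ± 0.54.

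The plastid glutamine synthetase gene GS-2 stood at 3087, 4212 and 5765 in R30, against 5891, 6783 and 8229 in D15 (-0.71 ± 0.34), and PPCK3 (-0.70 ± 0.44) and GS1alpha (-0.61 ± 0.49) were separated as well. GS-2, GS1-GAMMA and PPCK3 were highest in R30 on replicate 3. The nitrate reductase genes INR1 and INR2 overlapped between R30 and D15, at 0.11 ± 0.50 and 0.35 ± 0.59, but had fitted values of -2.71 ± 0.50 and -2.75 ± 0.59 between C30 and C15. The difference of these intervals, 2.82 ± 0.70 for INR1 and 3.10 ± 0.84 for INR2, did not pass over all probe sets (adjusted p = 1 each).

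Transcripts of the storage response overlapped between R30 and D15. VSPA, a vegetative storage protein gene, stood at 9128, 9367 and 7332 in R30, against 7777, 9539 and 9701 in D15, and the groups overlapped (-0.066 ± 1.35, adjusted p = 0.999). In untreated leaves it stood at 27.1 ± 13.0 in C30 and 1239 ± 1994 in C15. The 95% interval of the difference in the fit to all arrays, -2.88 to 2.75, carries the spread of VSPA in C15, where 1 array stood at 3542 and the others at 134 and 42.9. In the fit to the 6 arrays alone it was -0.46 to 0.33. None of the 7 VSPA probe sets was separated, 2 being higher and 5 lower by fitted value, and these probe sets may detect related storage protein transcripts too.

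None of 6 measured lipoxygenase genes, whose enzymes add oxygen to polyunsaturated fatty acids, was separated. Their median was 0.060 as deposited, -0.048 under median centring and -0.018 under quantile normalization, against -1.94 between C30 and C15. LOX7 stood at 10229, 10901 and 8818 in R30, against 8864, 11119.6 and 11386 in D15 (-0.064 ± 0.81), while C30 had 135 ± 139.8 and C15 2255 ± 2015. LOX10 was the member furthest from 0, at 2181, 2827 and 4112 in R30, against 3119.7, 5450.5 and 6019 in D15 (-0.67 ± 0.98, adjusted p = 0.999), again with overlap.

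The same held for the 3 soyasaponin genes, with a median of -0.080. CYP93E1, a cytochrome P450 that oxidises beta-amyrin, stood at 7165, 6561 and 7198 in R30, against 5829, 7922 and 7026 in D15 (0.020 ± 0.74). The glycosyltransferase gene SGT3, which adds a sugar to soyasaponins, stood at 3490.3, 2604 and 2343 in R30, against 3484, 4281 and 2832 in D15 (-0.33 ± 0.64), against 91.5 ± 55.9 in C30 and 476 ± 451 in C15. In the 6-array fit the 95% interval was -0.36 to 0.40 for CYP93E1 and -0.83 to 0.17 for SGT3, so a modest difference of either sign is within the error.

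Among protease inhibitors, proteins that block digestive proteases, 1 of the 3 measured genes (33.3%, against 12.9% of all probe sets) was separated. The Kunitz inhibitor genes KTI-2 and KTI-3 had overlapping groups. KTI-2 stood at 6301, 4348 and 2106 in R30, against 4678, 6275 and 3190.4 in D15 (-0.23 ± 1.02), and KTI-3 at 5775, 3990.4 and 2429 in R30, against 5039, 6942 and 3509 in D15 (-0.38 ± 0.96). BBI-1, a Bowman-Birk inhibitor gene, stood at 11379, 9624 and 4601 in R30, against 421, 1304 and 1084 in D15 (3.24 ± 1.06, adjusted p = 0.59). Both of its probe sets were separated. R20 stood at 3155, 4205 and 9281, above every D15 array, with 1 array inside the range of R30. In untreated leaves BBI-1 stood at 3305 ± 4614 in C30, where 1 array was high, and 758 ± 1006 in C15.

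**Figure D3:**
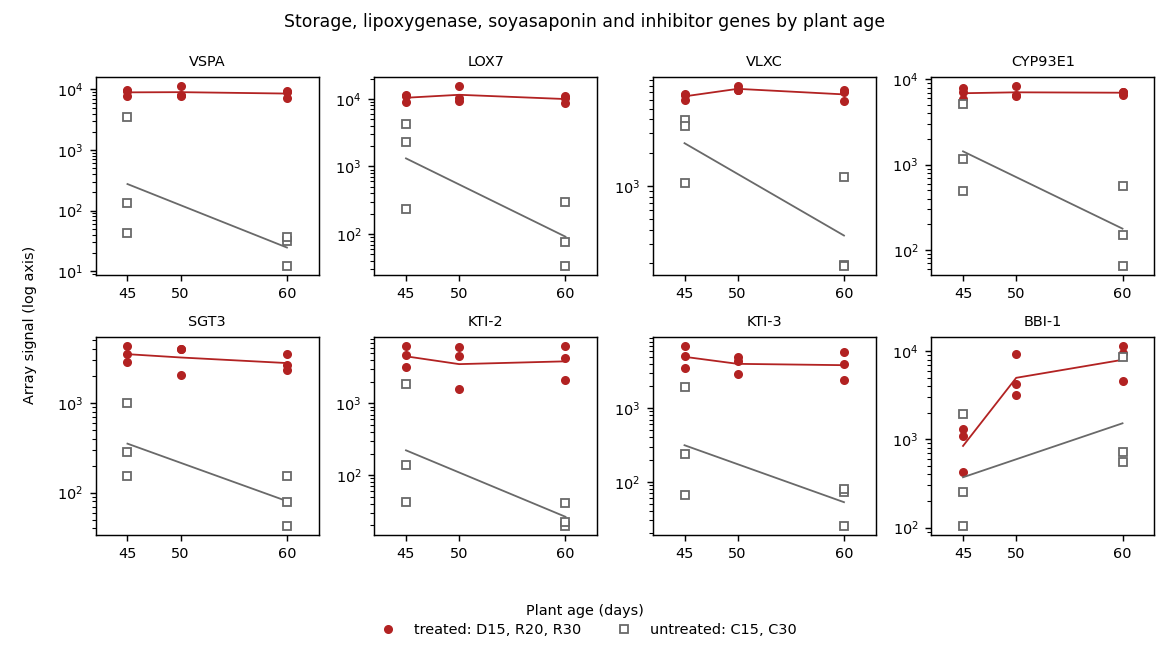
Signal of 8 genes of storage, lipid oxidation, soyasaponin synthesis and protease inhibition by plant age on log axes; filled red circles are arrays of treated plants, open squares those of untreated plants, and lines join group means of log2(signal + 1). R30 and D15 arrays overlap in every panel but BBI-1, in which the R30 arrays stand at 4601 to 11379 and the D15 arrays at 421 to 1304.

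Genes linked to leaf senescence, the ordered breakdown of an ageing leaf, had higher fitted values in R30 in 6 of 6 measured members, with a median of 0.96 against 0.39 between C30 and C15, and 2 (33.3%, against 12.9% of all probe sets) were separated. After quantile normalization 4 were, as without D15 replicate 3, when 10.9% and 22.6% of all probe sets were higher without overlap. CYSP1, 1 of the 6, was above the floor on no R30 or D15 array. VPE2, for a vacuolar processing enzyme that acts as a cysteine protease on vacuolar proteins, stood at 2039, 3570.2 and 10476 in R30, against 414, 527 and 1587 in D15 (2.59 ± 0.67, adjusted p = 0.475). R30 replicate 3 was far above the other R30 arrays, and D15 replicate 3 above the other D15 arrays. The other separated gene, VPE, stood at 55.8, 50.7 and 53.7 in R30, against 38.0, 18.7 and 36.0 in D15 (0.83 ± 0.51). The stay-green genes SGR2 and SGR1, whose products start chlorophyll breakdown, overlapped. SGR2 stood at 627, 712 and 1514 in R30, against 202, 293 and 645 in D15, and C30 had 4163 ± 964 and C15 2497 ± 1930.4.

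Both measured genes of the glyoxylate cycle, which turns the products of lipid breakdown into organic acids, were higher in R30 without overlap, against 12.9% of all probe sets. MS, the malate synthase gene, stood at 92.0, 242 and 894 in R30, against 7.69, 19.2 and 9.47 in D15 (4.48 ± 1.76, adjusted p = 0.759), and only 1 of its D15 arrays was above the floor. Its values spread widely within R30, highest on replicate 3. ICL1, the isocitrate lyase gene, stood at 65.1, 31.9 and 43.3 in R30, against 15.6, 14.1 and 23.7 in D15 (1.32 ± 1.25), and was no longer separated after quantile normalization. Of its D15 arrays too, only 1 was above the floor. The R30 arrays of both genes lay below every C30 array. In untreated leaves MS stood at 4969.5 ± 1133 in C30 and 3531 ± 3159 in C15.

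NAC transcription factors, many of which regulate ageing and stress responses in leaves, followed the same direction. Of 15 measured NAC genes 10 (66.7%, against 12.9% of all probe sets) were higher and 2 (13.3%, against 9.54%) lower in R30 without overlap. Their median was 1.06, against 1.24 between C30 and C15. None passed the test. The counts were 8 and 3 under quantile normalization and 7 and 3 under median centring. Over all probe sets the shares were then 10.9% and 11.7%, and 8.59% and 13%. Of the 10 higher as deposited, NAC51 was above the floor on no R30 or D15 array and NAC23 on no D15 array. NAC26 stood at 372, 504 and 828 in R30, against 63.1, 90.8 and 145 in D15 (2.50 ± 0.96, adjusted p = 0.747), with C30 at 2266 ± 98.2 and C15 at 1159.8 ± 1004. NAC34 stood at 292, 317 and 671 in R30, against 67.5, 87.6 and 168 in D15 (1.98 ± 0.95), and NAC2 at 1929, 1766 and 1231 in R30, against 801, 909 and 1224 in D15 (0.74 ± 0.33). The pair that was lower comprised NAC6 (-0.62 ± 0.42) and NAC018 (-1.21 ± 0.81). In NAC26, NAC34, NAC1 and NAC3 every R30 array was above every D15 array and below every C30 array.

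**Figure D4:**
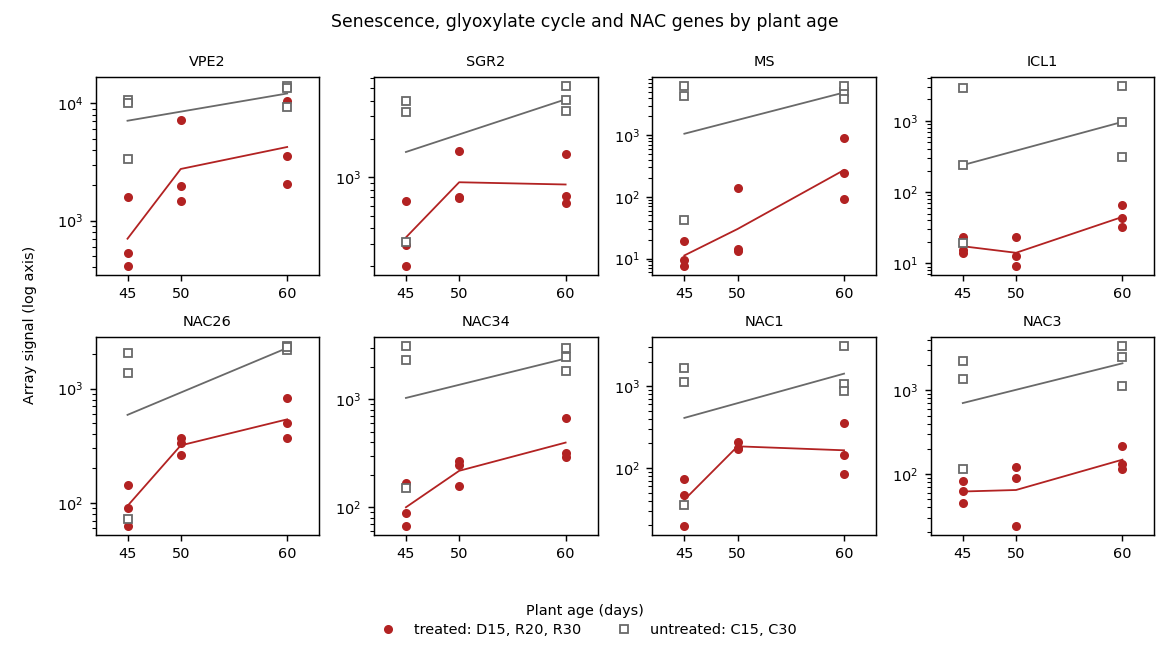
Signal of 8 senescence, glyoxylate cycle and NAC genes by plant age on log axes; filled red circles are arrays of treated plants, open squares those of untreated plants, and lines join group means of log2(signal + 1). R30 arrays lie above D15 arrays in all panels but SGR2, and below the C30 arrays in all panels but VPE2.

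All 6 measured DREB genes, transcription factors of drought and cold responses, had higher fitted values in R30 and 3 (50%, against 12.9% of all probe sets) were separated, also under both other scalings. Their median was 0.71, against 0.062 between C30 and C15. DREB1-like was above the floor on no R30 or D15 array, and the gene named DREB differed by only 0.0092. DREB1 stood at 705, 764 and 882 in R30, against 439.8, 412 and 409 in D15 (0.89 ± 0.28, adjusted p = 0.59), with the D15 arrays nearly equal, and DREB3 at 1114, 1306 and 1404 in R30, against 723, 767 and 729 in D15 (0.78 ± 0.31). In untreated leaves DREB1 stood at 812 ± 84.6 in C30 and 964 ± 269 in C15, and the difference of the intervals was 1.11 ± 0.40 (adjusted p = 1). MYB149, of the MYB family, stood at 425, 419 and 403 in R30, against 139.7, 261 and 164 in D15 (1.19 ± 0.33, adjusted p = 0.518), against 463 ± 98.0 in C30 and 467 ± 68.3 in C15.

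In the large families the counts without overlap were 10 higher and 2 lower of 55 MYB genes, 12 and 5 of 47 WRKY genes, and 9 and 0 of 50 bZIP genes. As deposited, 18.2% of MYB, 25.5% of WRKY and 18% of bZIP genes were higher, against 12.9% of all probe sets. Lower were 3.64%, 10.6% and 0% of them, against 9.54% of all probe sets. Median centring gave 8 and 2 for MYB, 8 and 4 for WRKY, and 3 and 2 for bZIP genes, while 8.59% of all probe sets were then higher and 13% lower. Without D15 replicate 3 the counts were 26 and 4 for MYB, 18 and 6 for WRKY, and 19 and 3 for bZIP genes. Of all probe sets 22.6% were then higher and 21% lower. The bZIP count of higher genes was also 14 or 15 without D15 replicate 1, R30 replicate 1 or R30 replicate 3, when 18.7% to 19.8% of all probe sets were higher. WRKY30 stood at 166, 216 and 217 in R30, against 1141, 833 and 309.7 in D15 (-1.74 ± 0.70), lower in R30, with D15 replicate 3 well under the other D15 arrays, and the second of its 2 probe sets overlapped. BZIP10 stood at 54.9, 37.7 and 28.8 in R30, against 153, 148 and 45.7 in D15 (-1.35 ± 0.57) with overlap through D15 replicate 3.

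Jasmonate, a hormone made from oxidised linolenic acid, is formed through allene oxide cyclase, and 3 of 6 jasmonate genes (50%, against 9.54% of all probe sets) were lower without overlap, all of them allene oxide cyclases. Between C30 and C15, 2 of the 6 were lower without overlap, against 4.11% of all probe sets. AOC6 stood at 238, 211 and 226 in R30, against 551, 571 and 601 in D15 (-1.35 ± 0.59), AOC4 at 21.8, 31.7 and 62.8 in R30, against 103, 75.0 and 84.6 in D15 (-1.28 ± 0.52, adjusted p = 0.776) and AOC3 at 323, 383 and 381 in R30, against 636, 549 and 674 in D15 (-0.77 ± 0.37). COI1, the jasmonate receptor gene, was higher, at 850.3, 942 and 1104 in R30, against 690.2, 689.9 and 616 in D15 (0.53 ± 0.25). Between C30 and C15 the fitted values of these cyclases were -1.84 ± 0.59, -1.12 ± 0.52 and -0.94 ± 0.37. The list's median was -0.64 against -0.73 between C30 and C15, and ranged with 1 array left out from -0.45 without D15 replicate 3 to -0.81 without R30 replicate 3.

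Of 13 genes of fatty acid synthesis and desaturation 12 had lower fitted values in R30 and 4 (30.8%, against 9.54% of all probe sets) were separated (median -0.56, against -0.22 between C30 and C15). Without D15 replicate 3 the median was -0.30, and without D15 replicate 1 it was -0.25. FAD2-1A, 1 of the 12, was above the floor on no R30 or D15 array. ACCB-2, a subunit of the plastid acetyl-CoA carboxylase that starts fatty acid synthesis, stood at 216, 139 and 107 in R30, against 372, 327 and 341 in D15 (-1.22 ± 0.45, adjusted p = 0.72). The other 3 were omega-3 desaturase genes, which make linolenic acid. FAD7-2 stood at 73.2, 64.2 and 65.0 in R30, against 124, 107 and 172 in D15 (-0.96 ± 0.45) and FAD8.2 at 185, 153 and 303 in R30, against 396, 421 and 450.4 in D15 (-1.04 ± 0.70). FAD3C was below the floor on all R30 arrays and was at least 3.16-fold lower in R30 (adjusted p = 0.736). This bound was 2.66-fold without D15 replicate 3 and 3.54-fold without D15 replicate 2. The oleate desaturase gene FAD2-2 overlapped, at 6440.2, 5549 and 4348 in R30, against 4962, 5659.7 and 5939 in D15 (-0.034 ± 0.45).

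Isoflavonoids are defence compounds of legumes, and 6 of 17 genes of their synthesis (35.3%, against 9.54% of all probe sets) were lower in R30 without overlap and 1 (5.88%, against 12.9%), CYP81E11, was higher. Their median was -0.29, against -0.029 between C30 and C15. Without R30 replicate 1 the median was -0.45. CYP93A3, a cytochrome P450 gene, stood at 16.7, 18.5 and 28.4 in R30, against 113, 45.0 and 154 in D15 (-2.11 ± 0.68, adjusted p = 0.59), with 1 R30 array below the floor. IFS2, the gene of isoflavone synthase, which forms the isoflavone skeleton, stood at 4492, 3826 and 4213 in R30, against 8057, 6633 and 6095 in D15 (-0.72 ± 0.76). The prenyltransferase gene G4DT stood at 158, 51.7 and 17.6 in D15 and was below the floor on all R30 arrays, at least 2.82-fold lower in R30 (adjusted p = 0.876). This bound was 1.64-fold without D15 replicate 1 and 4.79-fold without D15 replicate 3. Of 11 genes of the flavonoid core pathway 3 (27.3%, against 9.54% of all probe sets) were lower without overlap. Without R30 replicate 1 it was 5, against 13.6% of all probe sets. CHI1A, a chalcone isomerase gene among the 3, stood at 2756, 2282 and 2111 in R30, against 3859, 3699.5 and 3444 in D15 (-0.63 ± 0.56). CHI3A1, also among the 3, was below the floor on all R30 arrays, at 2.97 to 7.45, and stood at 9.60 to 23.2 in D15. Its probe sets disagreed, 2 being higher and 2 lower by fitted value, and only 1 of the 4 was separated.

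Of 20 gibberellin genes 14 had lower fitted values in R30. Without overlap 5 (25%, against 9.54% of all probe sets) were lower and 1 (5%, against 12.9%) was higher. Between C30 and C15, 8 were lower without overlap, against 4.11% of all probe sets. The median was -0.25, against -1.03 between C30 and C15. All 5 separated lower genes encode GASA peptides, small cysteine-rich proteins whose genes respond to gibberellin. GASA11 stood at 190.0, 95.9 and 69.4 in D15, above the floor on all arrays, and below the floor on all R30 arrays, and was at least 5.73-fold lower in R30 (adjusted p = 0.629). This bound was 4.33-fold without D15 replicate 1 and 7.13-fold without D15 replicate 3. GASA14 stood at 208, 157 and 18.4 in R30, against 1305, 1123 and 581 in D15 (-3.46 ± 1.57). GA2OX6, which encodes an oxidase that inactivates gibberellins, was the gene that was higher, at 309, 310.0 and 499 in R30, against 22.5, 60.3 and 86.0 in D15 (2.86 ± 1.01, adjusted p = 0.664), and R20 already stood at 331, 452 and 510.4.

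Of 11 starch and sugar genes 9 had higher fitted values in R30. Without overlap 3 (27.3%, against 12.9% of all probe sets) were higher and none was lower. Under quantile normalization and under median centring 2 were higher, against 10.9% and 8.59% of all probe sets. SWEET28, 1 of the 3, was above the floor on no D15 array. The transporter gene SWEET17, another of the 3, had the largest fitted difference of the 20 leading genes. Its 3 R30 arrays stood at 985, 232 and 29.3, and no D15 array was above the floor for this probe set, so it was at least 11.2-fold higher in R30 (adjusted p = 0.514). The R30 arrays spread widely, and this bound was 4.91-fold without R30 replicate 1 and 28-fold without R30 replicate 3. A second probe set of SWEET17, with a mean signal of 178 in R30 and 12.2 in D15, was also separated. SWEET42 stood at 399, 386 and 327 in R30, against 249.7, 271 and 309 in D15 (0.42 ± 0.25). The sucrose transporter gene SUT1 (0.35 ± 0.61) and the beta-amylase gene BMY2 (-0.29 ± 0.40), of starch breakdown, overlapped.

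Photosynthesis genes were close to equal, with 1 of 7 separated (14.3%, against 12.9% of all probe sets) and a median of -0.037. That gene was RCABETA, for the beta form of Rubisco activase, which keeps the carbon-fixing enzyme active, at 785, 650.0 and 378 in R30, against 217, 337 and 189.8 in D15 (1.26 ± 0.41, adjusted p = 0.59). CAB3 stood at 11529, 10938 and 13800.4 in R30, against 9925, 12726 and 14893 in D15 (-0.037 ± 0.32) and the photosystem gene PSAD at 7849, 8654 and 8886 in R30, against 7524, 9169.9 and 9367 in D15 (-0.033 ± 0.23).

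Of 11 redox genes 0 (0%, against 12.9% of all probe sets) were higher and 1 (9.09%, against 9.54%), AOX1, was lower in R30 without overlap. Their median was 0.092, against 0.13 between C30 and C15. Quantile normalization gave 1 higher and 2 lower. CCS, the copper chaperone of superoxide dismutase, is a leading gene outside that list. It stood at 106, 95.4 and 66.6 in R30, against 42.0, 17.6 and 34.4 in D15 (1.54 ± 0.43, adjusted p = 0.518). GSTU1, a glutathione S-transferase gene, stood at 2182, 2187 and 1869.8 in R30, against 913, 1279 and 1111 in D15 (0.93 ± 0.26, adjusted p = 0.518), and of 24 genes of its family 5 (20.8%, against 12.9% of all probe sets) were higher and 2 (8.33%, against 9.54%) lower without overlap. These counts were 2 and 3 under median centring, 6 and 4 under quantile normalization, 10 and 3 without D15 replicate 3 and 9 and 3 without R30 replicate 3. Over all probe sets the shares were then 8.59% and 13%, 10.9% and 11.7%, 22.6% and 21%, and 19.8% and 14%. The iron superoxide dismutase gene SODB2 stood at 3235, 4175 and 6128 in R30, against 5906, 6333 and 9428 in D15 (-0.70 ± 0.28) with overlap. AOX1, for the alternative oxidase of mitochondria, was lower without overlap at 170.5, 191 and 320.0 in R30, against 533, 435 and 554 in D15 (-1.20 ± 0.49), while C30 had 1706 ± 361 and C15 1020.0 ± 839. The difference of these intervals for AOX1, -2.22 ± 0.70, did not pass over all probe sets (adjusted p = 1).

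Of the remaining leading genes 4 were lower in R30 and 1, UR9, was higher. HD2A, a plant-specific histone deacetylase gene, stood at 285, 305 and 176 in R30, against 753, 669.6 and 593 in D15 (-1.42 ± 0.37, adjusted p = 0.485). CYP76O2, a cytochrome P450 gene, stood at 156, 120.4 and 391 in R30, against 1299, 1367 and 1192 in D15 (-2.72 ± 0.76, adjusted p = 0.518), with nearly equal D15 arrays, and C30 had 14.7 ± 9.88 and C15 244 ± 272. SABATH2, of a family of methyltransferases, stood at 134, 126 and 621 in R30, against 1630.5, 1219 and 1982 in D15 (-2.85 ± 0.91, adjusted p = 0.59). SSH2, a gene similar to yeast Sec14 of lipid transfer, stood at 47.0, 61.0 and 84.1 in R30, against 126, 158 and 255 in D15 (-1.45 ± 0.45, adjusted p = 0.59). UR9 was below the floor on all D15 arrays and at least 1.45-fold higher in R30 (adjusted p = 0.68). This bound was 1.31-fold without R30 replicate 1 and 1.62-fold without R30 replicate 3.

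Cell wall, water channel and defence genes gave few differences. The expansin gene EXP2, whose product loosens cell walls, stood at 79.3, 46.9 and 60.3 in R30, against 362, 357 and 397 in D15 (-2.59 ± 1.15, adjusted p = 0.817). It was the only separated gene of 9 as deposited (11.1%, against 9.54% of all probe sets). PRP2, a proline-rich wall protein gene, stood at 13825, 7111 and 892 in R30, against 5011, 3184 and 1465 in D15 (0.64 ± 0.89), and its R30 arrays spread more than the groups differed. The aquaporin gene PIP1-1 stood at 321, 289.7 and 336 in R30, against 664, 704 and 656 in D15 (-1.10 ± 0.54), and of 19 aquaporin genes 2 were higher and 2 lower without overlap, 10.5% each, close to the shares of all probe sets (12.9% and 9.54%). Quantile normalization gave 2 higher and 4 lower, median centring 1 and 4, leaving out D15 replicate 3 gave 4 and 7, and leaving out R30 replicate 1 gave 2 and 5. Over all probe sets the shares were then 10.9% and 11.7%, 8.59% and 13%, 22.6% and 21%, and 19.6% and 13.6%. PR10, a pathogenesis-related gene, stood at 491, 413 and 345 in R30, against 1051, 761 and 663 in D15 (-0.97 ± 0.77), the only separated gene of 5 (20%, against 9.54% of all probe sets). Of 7 phosphate genes 3 (42.9%, against 12.9% of all probe sets) were higher and 2 (28.6%, against 9.54%) lower without overlap. Under median centring 2 were higher and 3 lower, against 8.59% and 13% of all probe sets. Of the 3 higher as deposited, PHT1-8 and PHT1-3 were below the floor on all D15 arrays. The purple acid phosphatase gene PAP25, whose enzyme frees phosphate, was higher at 6843, 5471 and 3499 in R30, against 2135, 2289 and 3336 in D15, while PAP02 was lower at 243, 256 and 229.9 in R30, against 311, 298 and 299 in D15 and PAP14 at 313, 311 and 271 in R30, against 323, 393 and 389 in D15.

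Genes of the tocopherol and carotenoid pathways showed none of 5 separated. HPT1, of tocopherol synthesis, stood at 127, 178 and 535 in R30, against 112, 107 and 256 in D15 (0.66 ± 0.78) and at 4930.2 ± 1319 in C30 and 2273 ± 1737 in C15. Of the hormone and light genes, the cytokinin oxidase gene CKX3 was lower at 30.7, 30.2 and 40.9 in R30, against 55.2, 52.3 and 160.5 in D15 (-1.18 ± 0.67). AUX22, an auxin-induced gene, stood at 97.5, 52.0 and 18.8 in R30, against 90.0, 39.5 and 38.3 in D15 (-0.16 ± 1.04) with overlap. SNRK1 (-0.24 ± 0.23), the ethylene receptor gene EIN4 (0.60 ± 0.44) and the phytochrome gene PHYA (0.61 ± 0.53) overlapped. CG-1, SEOE and PHT1-8 were above the floor on 1 R30 array and no D15 array.

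**Figure D5:**
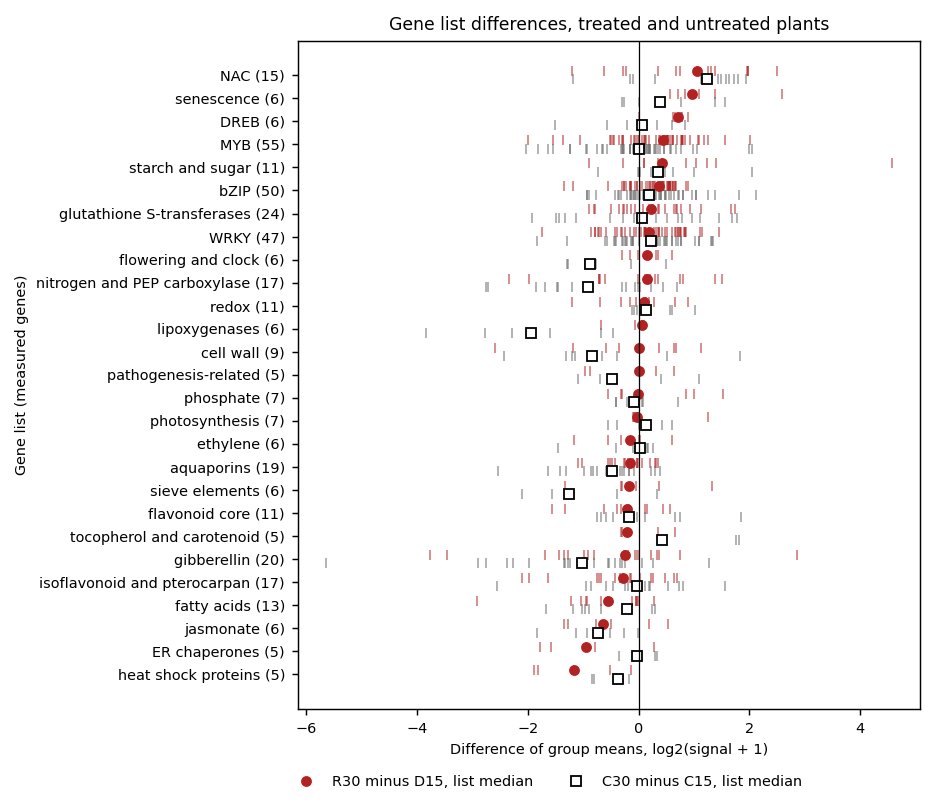
Difference of group means on the log2(signal + 1) scale for gene lists with at least 5 measured genes; red circles and ticks are list medians and single genes of R30 minus D15, and open squares and grey ticks those of C30 minus C15. The heat shock and ER chaperone lists have the lowest medians of R30 minus D15 (-1.16 and -0.94), the NAC list the highest (1.06), and lipoxygenases lie near 0 while their C30 minus C15 median is -1.94.

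In the fit to the 6 arrays alone, 20 genes with an informative symbol were among the 337 probe sets called, 8 higher and 12 lower in R30. On the higher side they included BBI-1 (adjusted p = 0.024 in that fit), NAC26 (0.0281), GA2OX6 (0.0339), MS (0.0357) and WRKY51 (0.0468). On the lower side they included EXP2 (0.00592), HSP23.9 (0.0152), AOC6 (0.0208), CYP76O2 (0.0243), PPCK2 (0.0312), PIP1-1 (0.0357), HSP90-1 (0.0428), GS1-GAMMA (0.0464) and HD2A (0.0468). WRKY51, AOC6 and HSP90-1 fall outside the rule for named genes. So do the others, CIF1, OLPa and PTS-L4, higher, and AG1, CYP82A2 and CYP77A3, lower. Genes outside the rule were listed after their values were seen. AG1 had a log2 difference of -1.26 ± 0.18 and OLPa one of 2.18 ± 0.31, both in that fit. That fit takes the spread from 2 groups of 3 arrays.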

How the data were processed

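Signal was measured in 22 mature leaf samples on Affymetrix Soybean GeneChips, per the labels' protocols. As deposited, values are linear intensities, 1 for every probe set on every array. The 2% trimmed means are alike on all arrays, so the authors' intensities had been scaled to a common mean, with software not given in the sources used here. Of 37593 soybean probe sets, 32776 exceeded on at least 3 arrays the floor, the 95th percentile of the oomycete and nematode probe sets, and were tested. Of all soybean probe sets 8677 have a single symbol, 370 more than one and 28546 none; genes were named from the first kind, by the probe set of highest mean. Probe sets can share probes with related transcripts, so values within gene families are uncertain.

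Groups were compared with limma 3.58.1 (R 4.3.3) on log2(intensity + 1), with 1 coefficient per group over all 22 arrays, a variance trend, and Benjamini-Hochberg adjustment over all tested probe sets. Calls were made at an adjusted p below 0.05. A log2 difference on this scale understates the change of dim genes. Where no array of a group exceeded the floor, "at least N-fold" compares the brighter group's mean on the log2 scale with the dim group's, in which each array counts at its floor or at its own signal if that is higher. The code was tested on simulated data. The number of arrays limits the precision, and since the labels state no separate plants, p-values reflect only how much these samples vary, which may be technical.

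The members and gene lists were chosen with earlier results of these data known. Named genes are the called ones, at most 10 in each direction, filled up with those of smallest p, and the member of smallest p of each list. Deviations from the group means of same-numbered R30 and D15 arrays correlated at 0.18, 0.081 and 0.33. Those of C30 and C15 arrays correlated at 0.22, 0.0074 and 0.46. Numbers were not taken as pairs in the main fit, and what same-numbered arrays share was not tested. VSPB was not analysed here.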

Additional observations from a re-analysis of the deposited data

Results flagged for a closer look

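Of 417 named genes and list members, 2 lay without overlap in one direction between R30 and D15 and in the other between C30 and C15. MYB175, a MYB transcription factor gene, stood at 1489, 1322 and 1463 in R30, against 1209, 1051 and 857 in D15, and in untreated leaves at 826 ± 99.4 in C30 and 1312 ± 331 in C15. The treated difference exceeded the untreated one by 1.11 ± 0.54 on the log2 scale, which did not pass in limma over all probe sets (adjusted p = 1). PIP1-10, an aquaporin gene, stood at 4533, 4199.7 and 3813 in R30, against 3127, 3784 and 3220.4 in D15, and at 1971 ± 297 in C30 and 2969.5 ± 555 in C15. Its excess was 0.895 ± 0.49 (adjusted p = 1). Both probe sets carry the array maker's suffix for probes that also match other transcripts. Groups of 3 arrays were too small to be searched for a lone array.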

How the results depend on the processing

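For R30 against D15 the count of called probe sets was 0, and stayed at 0 without the floor filter, with the floor exceeded on at least 11 arrays, under quantile normalization, median centring and no variance trend, and with each array of either group left out. It was 4 with a pseudocount of 16 (3 higher, 1 lower), 337 with only the arrays of R30 and D15, 43 with those arrays and no variance trend (an alternative added after seeing the data), and 94 without C0 replicate 4, C15 replicate 1 and R20 replicate 3. Array weights gave 10218, but their estimate stopped before reaching its tolerance and weights ran from 0.0926 to 8.51. For C30 against C15 the counts were 1 with a pseudocount of 16, 5 under quantile normalization, 2729 with array weights, 3 without those 3 arrays, and 0 to 27 with 1 array left out. Without C15 replicate 2 it was 27, without C30 replicate 2 it was 16 and without C30 replicate 1 it was 8. The difference between the intervals gave 1290 with array weights and 0 under every other alternative run. Replicate numbers were not taken as pairs in the main fit. With a replicate block the calls were 12 for R30 against D15 and 16 for C30 against C15. The cause of these differences was not tested.

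Of the 44 named genes, 37 were called with array weights, 11 with only the R30 and D15 arrays, 5 without the 3 arrays and 1, EXP2, with the 6 arrays and no variance trend. VSPA turned to 0.00123 with array weights, and ranged from -0.169 to 0.0452 with 1 array left out. AUX22 turned to 0.148 with array weights, and ranged from -0.697 to 0.46 with 1 array left out, being 0.234 without D15 replicate 1. The other 42 kept their sign. The counts of separated probe sets and genes under other scalings or with 1 array left out, and the bounds with 1 array left out, were chosen after seeing the data. Low signal limits SWEET17, UR9, GASA11, FAD3C, G4DT and CHI3A1, for which 1 group lies below the floor. It also limits MS, ICL1, NAC23, NAC51, PHT1-8 and PHT1-3, which were below the floor on most or all D15 arrays.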
